A study of Homo sapiens with 4 samples.

Results

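The regions described here are peaks of PD-L1 ChIP-seq that lay near chromosome ends. A peak belonged to a chromosome end when its midpoint was within 3 Mb of either end of chromosomes 1 to 22 in hg38, with chromosome 20 left out. Of the 166628 peaks listed for replicate 1, 13715 met this rule, and of the 93618 listed for replicate 2, 7106 did. The rule used position only and no measured value. The cells were a subcloned population of the established triple-negative breast cancer line MDA-MB-231, with a wild-type genotype label and no treatment, grown in DMEM with serum and antibiotics. Chromatin was precipitated with an HA antibody (Abcam ab9110) in 2 replicates labelled PD-L1, each with an input sample. No source used here says how PD-L1 received the tag. A precipitation from cells without the tag was not analysed here, so recovery of chromatin without the target cannot be told apart from binding at any region below. Peaks of replicate 2 carry Merge in their names without an explanation, so whether the lists are independent is not known, and the spread between them may be technical.

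PD-L1, the product of CD274, is a membrane ligand of the T-cell receptor PD-1, and it has also been described in nuclei. A chromosome end consists of telomere repeats bound by the shelterin proteins, followed inward by subtelomeric sequence made of blocks that several chromosomes share. Further in lies unique sequence, which at many human chromosome ends is rich in genes and in GC, while other ends hold a few long genes.

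Among genes of the chromosome ends with an entry in the promoter table, the 4 best-ranked whose listed promoter met their region shared by both replicates are shown by sequence. The regions of P4HB and RNF168 covered the gene start. Those of CEP131 and MIER2 lay before it and met only the first bases shown, so most of each of these sequences lay outside the region. A gene can start at other places too, and only the listed one was used. Each sequence is the RefSeq promoter (GRCh38.p14, a patch release of hg38) from 250 bases before to 50 bases after the gene start, 5′ to 3′ on the strand of the gene. Capitals mark 2 motifs on either strand, of which the first is GGGCGG, the core of the GC box. The second is CCAAT, the core of the CCAAT box. The unit of the telomere repeat, TTAGGG, was searched on both strands too and was found in none of the 4. Matches of different motifs may overlap, as may matches of the same one.
P4HB (chr17:81860486-81860785, minus strand): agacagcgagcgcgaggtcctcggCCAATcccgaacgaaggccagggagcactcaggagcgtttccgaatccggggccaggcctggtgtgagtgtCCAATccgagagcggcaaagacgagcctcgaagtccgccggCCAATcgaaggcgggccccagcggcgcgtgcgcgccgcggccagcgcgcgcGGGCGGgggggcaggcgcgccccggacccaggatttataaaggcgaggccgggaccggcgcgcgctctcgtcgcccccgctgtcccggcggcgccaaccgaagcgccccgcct
CEP131 (chr17:81222916-81223215, minus strand): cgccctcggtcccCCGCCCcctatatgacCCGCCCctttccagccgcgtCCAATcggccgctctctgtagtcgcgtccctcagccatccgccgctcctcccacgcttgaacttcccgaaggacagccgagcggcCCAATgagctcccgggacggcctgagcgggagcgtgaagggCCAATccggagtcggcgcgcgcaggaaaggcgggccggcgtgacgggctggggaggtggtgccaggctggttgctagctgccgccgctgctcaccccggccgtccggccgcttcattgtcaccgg
RNF168 (chr3:196503719-196504018, minus strand): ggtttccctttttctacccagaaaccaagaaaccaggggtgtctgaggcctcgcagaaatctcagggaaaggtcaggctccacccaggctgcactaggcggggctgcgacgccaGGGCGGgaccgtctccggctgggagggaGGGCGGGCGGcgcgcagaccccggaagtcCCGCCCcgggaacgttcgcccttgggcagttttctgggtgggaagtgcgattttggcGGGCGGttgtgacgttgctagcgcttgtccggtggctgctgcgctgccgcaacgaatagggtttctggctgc
MIER2 (chr19:344747-345046, minus strand): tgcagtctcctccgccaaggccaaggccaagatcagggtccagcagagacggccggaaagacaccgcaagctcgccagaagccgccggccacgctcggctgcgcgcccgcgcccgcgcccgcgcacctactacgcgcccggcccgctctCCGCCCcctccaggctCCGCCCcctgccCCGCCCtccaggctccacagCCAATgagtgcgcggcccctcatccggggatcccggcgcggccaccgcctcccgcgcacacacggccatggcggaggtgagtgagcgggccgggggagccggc

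These 4 promoters were rich in GC, with 73.7% for P4HB, a disulfide isomerase of the endoplasmic reticulum, 71.3% for CEP131, a centriolar satellite protein, 65% for RNF168, the histone H2A ubiquitin ligase of the DNA damage response, and 76% for MIER2, a transcriptional regulator. A high GC content was common to promoters of chromosome ends with or without a region. Of the protein-coding genes at ends outside chromosome 8, 82.2% had a sequence, 1181 in all, and promoters of chromosome 8 were not used here. Median GC content was 69% over the 213 end promoters that met a shared region and 69.7% over the 968 that did not, against 64% and 61.7% in the rest of the arms. GGGCGG was found in 71.8% and 70.4% of these end promoters, CCAAT in 25.8% and 34.8%, and TTAGGG in 8.45% and 6.71%. Over all 14700 promoters of the same length these shares were 58.8%, 36.2% and 8.95%. Of the end promoters, 18% met a shared region, against 20.8% of 13519 in the rest of the arms and 20.6% of all.

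Peaks were denser at most chromosome ends than in the rest of the same arm. Sequence was counted for 37 arms, 16 short and 21 long, since the short arms of the 5 acrocentric chromosomes hold almost no assembled sequence and no peak fell within 3 Mb of their ends. Gene-free stretches of 1 Mb or more, such as centromeres, were left out of every length. The ends made up 4.23% of the sequence so counted and held 8.72% of the peaks of replicate 1 and 8.13% of those of replicate 2. Peak density was 123.6 per Mb at ends against 57 in the rest for replicate 1, and 64 against 31.9 for replicate 2. The median over arms of the log2 ratio of end to rest was 1.02 in replicate 1 and 0.97 in replicate 2, so the replicates differed far less than the median end did from its arm. An exact sign-flip permutation test over 2 replicates cannot give a p below 0.5, so no p is given for this or any later comparison, which are descriptions.

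The end had more peaks per Mb than the rest of its arm in both replicates for 29 of 37 arms. Of the 837 windows of 3 Mb that are not ends, 36.1% exceeded the remainder of their arm in both replicates. The long arm of chromosome 13 had the highest ratio, with 194.3 peaks per Mb at the end against 27.9 in replicate 1 and 85 against 16.9 in replicate 2. By the mean log2 ratio of both replicates it was followed by 8q (163.3 against 27.8, and 73.3 against 17.2), 2q (175.3 against 36.3, and 83 against 21.4) and 7p (234.7 against 49.2, and 98 against 27.2). The end of 21q reached 100.3 and 64.3 peaks per Mb in an arm with 20.9 and 18.2. In all, 15 ends had at least the double density in both replicates. The highest density of all ends differed between the replicates: it was at 7p in replicate 1 and at 16q in replicate 2, with 138 peaks per Mb.

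**Figure D1:**
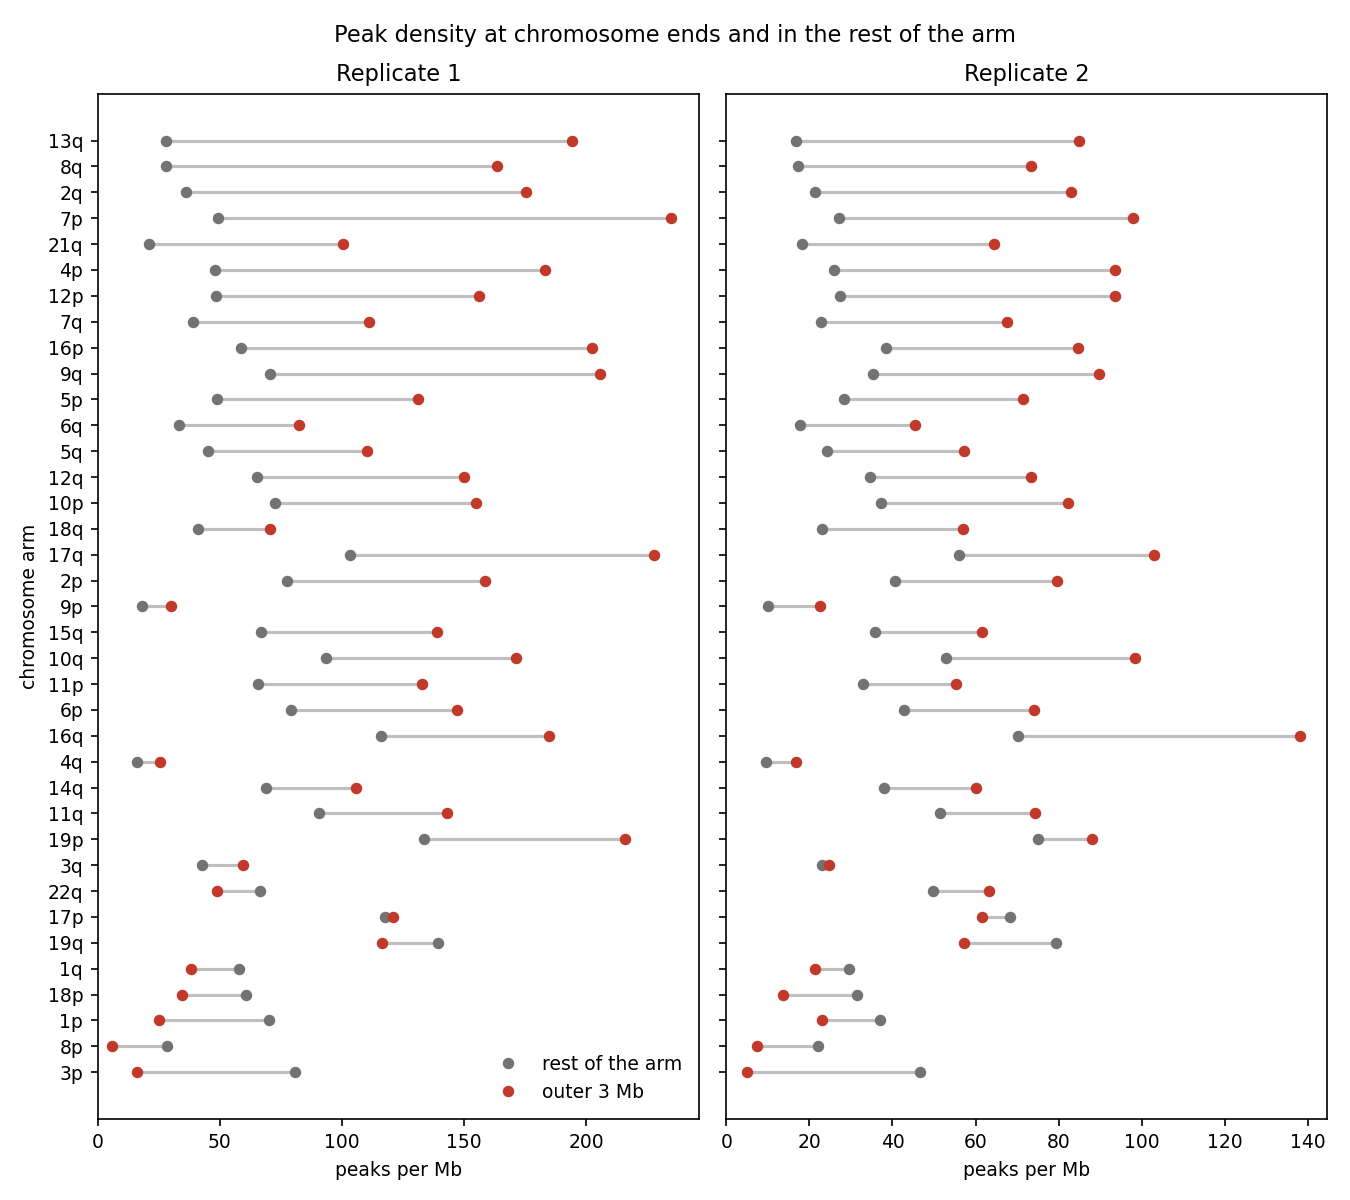
Peaks per Mb in the outer 3 Mb (red) and in the rest of the arm (grey) for each of 37 chromosome arms, replicate 1 on the left and replicate 2 on the right, ordered by the mean log2 ratio. The red point lies to the right in both panels for 29 arms, from 13q at the top to 3q, and to the left in both for 19q, 1q, 18p, 1p, 8p and 3p.

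Fewer peaks per Mb than in the rest of the arm were seen in both replicates at 6 ends, 3p, 8p, 1p, 18p, 1q and 19q. The end of 3p had 16 and 5 peaks per Mb in an arm with 80.7 and 46.7. Its 3 protein-coding genes are the neural adhesion genes CHL1, CNTN6 and CNTN4, and the longest of them, CNTN4, held 26 peaks of replicate 1 and 4 of replicate 2. At 8p the counts were 17 and 22 peaks in all, of which 16 and 19 lay in the outermost 1 Mb. Between 1 and 2 Mb from that end there was no peak in either list, and DLGAP2, a synaptic scaffold gene, CLN8, ARHGEF10, KBTBD11 and MYOM2 held none. The end of 1p, with 67 protein-coding genes, had 25 and 23 peaks per Mb against 70 and 37, and its count by 1 Mb steps inward was 6, 24 and 45 in replicate 1. The ends of 17p and 22q lay above the arm in one replicate and below it in the other. At 22q these were 48.7 against 66.4 peaks per Mb in replicate 1, and 63.3 against 49.7 in replicate 2.

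Gene density was itself higher at the ends. There were 13.9 protein-coding genes per Mb at ends and 6.71 in the rest, a ratio of 2.07 that is close to the ratios of peaks, 2.17 in replicate 1 and 2.01 in replicate 2. Pooled over all arms, peaks per protein-coding gene were therefore much alike, with 8.89 at ends and 8.5 in the rest in replicate 1, and 4.61 and 4.75 in replicate 2. Taken arm by arm, the picture was mixed. The end was richer in genes than its arm in 27 arms, and 21 of these had more peaks per Mb in both replicates. It was poorer in genes in 10 arms, and 8 of these still had more peaks per Mb in both: 2p, 4q, 6p, 7q, 10p, 11q, 12p and 15q. The exceptions were 3p and 8p. Over the 37 arms, the ratio of gene densities and the ratio of peak densities had a Spearman's rho of 0.53 in replicate 1 and 0.47 in replicate 2; arms share the library and are not replicates.

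A line of log2(peaks per Mb + 1) on log2(protein-coding genes per Mb + 1), with an intercept for each chromosome, was fitted to the 837 windows of 3 Mb that were not ends. Its slope was 0.92 in replicate 1 and 0.82 in replicate 2, and it took up 49.3% and 48.7% of the variance. The median end lay above this line by 0.62 in replicate 1 and 0.73 in replicate 2 on the log2 scale, or 1.54-fold and 1.66-fold. Single windows scattered around the line with an SD of 1.18 and 1.05, which is wider than that excess. In both replicates 26 of 37 ends lay above it and 9 below it, whereas 45.5% of the other windows lay above it in both. The largest excess was at 2p (2.47 and 2.13), followed by 6p (2.28 and 2.11), 11q (2.13 and 1.94) and 7q (2.00 and 1.94), ends with few genes and many peaks. The intercept was per chromosome and not per arm, so these values do not compare an end with its own arm. The next windows inward, from 3 to 6 Mb, also lay far above the line. In replicate 1 their excess was 1.86 at 2p, 2.00 at 6p, 1.93 at 11q and 2.25 at 7q. At 7q it was larger than that of the end in both replicates. The ends farthest below the line were 1p (−2.23 and −1.29) and 1q (−1.51 and −1.29). The gene-richest end, 16p with 44 genes per Mb, lay below it too (−0.77 and −1.14) although it had 3.46 times and 2.2 times the peak density of its arm.

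**Figure D2:**
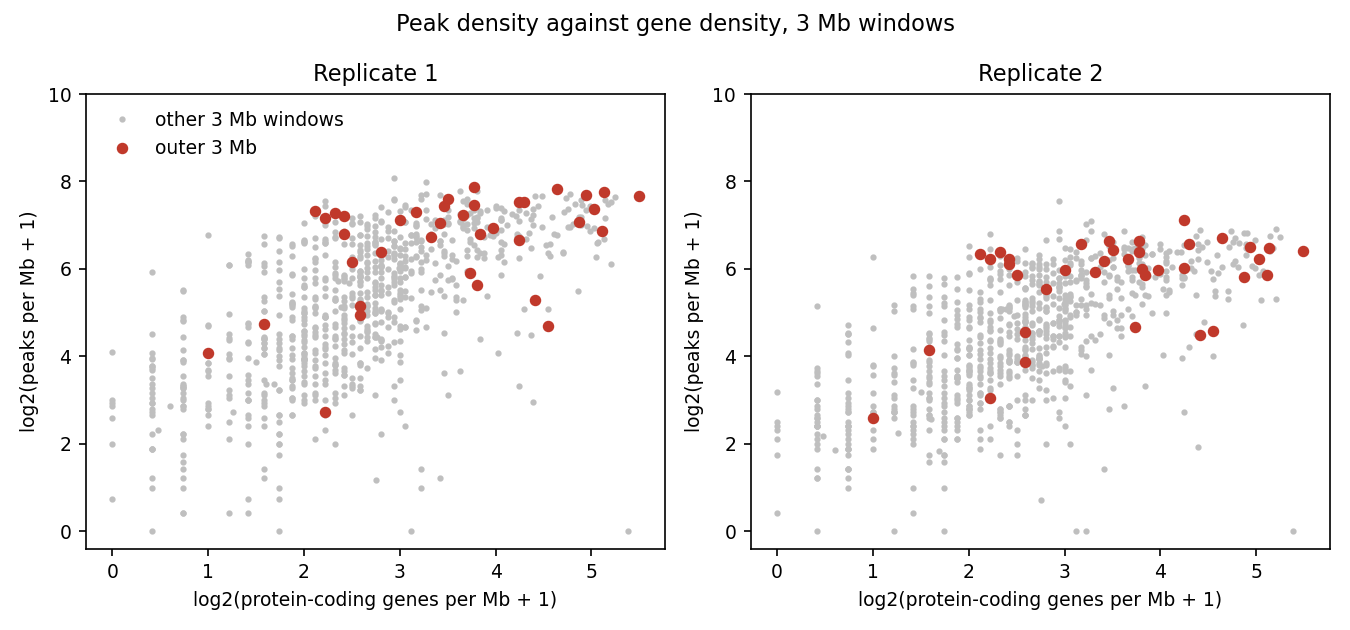
Peak density against protein-coding gene density on log2 scales (1 added to both) in windows of 3 Mb, replicate 1 on the left and replicate 2 on the right; red points are the 37 chromosome ends and grey points the 837 other windows. The fit with an intercept per chromosome is not drawn; 26 of the 37 ends lie above it in both replicates, and among the ends with few genes 2p and 11q lie far above it and 3p and 8p below it.

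By class of gene density, the median end was denser than the median of the other windows in each of 4 classes. Gene density was not equal within a class. Its medians, in genes per Mb, were 3.33 at ends against 2.33 in the other windows in the lowest class. In the next classes they were 4.83 against 5.67, 12 against 10.7 and 26.2 against 22.7. With under 4 genes per Mb, the 5 ends fell apart: in replicate 1, 2p and 11q had 158.7 and 143 peaks per Mb, while 4q had 25.7, 3p 16 and 8p 5.67. Their median was 25.7 against 14.7 in 323 other windows in replicate 1, and 16.7 against 9.67 in replicate 2. With 4 to under 8 genes per Mb, 8 ends had medians of 96.7 against 44.8 and 59.3 against 25.3. With 8 to under 16, the medians of 12 ends were 140.7 against 98.7 and 72.3 against 55.7. With 16 or more, those of another 12 ends were 173.2 against 123.7 and 79 against 65. The ranges overlapped in every class, since other windows with under 4 genes per Mb ran from 0 to 186.3 peaks per Mb in replicate 1.

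The excess over gene density did not stop at 3 Mb. The windows next to the ends, from 3 to 6 Mb, lay above the line by a median of 1.31 in replicate 1 and 1.35 in replicate 2, more than the ends themselves, and 30 of 37 were above it in both replicates. The third windows lay above it by 0.96 in both replicates, and the fourth by 0.72 and 0.59. In steps of 1 Mb, density just inside the limit, from 2 to 3 Mb, was 123 and 67.6 peaks per Mb in the replicates, and just outside it, from 3 to 4 Mb, 134.1 and 74.7. It then fell to 76.2 and 42.7 between 14 and 15 Mb. Genes followed another course, with 16.3 per Mb in the first step, 10.1 in the third and 8.95 in the fourth. Peaks per gene were therefore lowest in the outermost 1 Mb, at 6.94 and 3.36, and highest between 3 and 4 Mb, at 15 and 8.35.

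**Figure D3:**
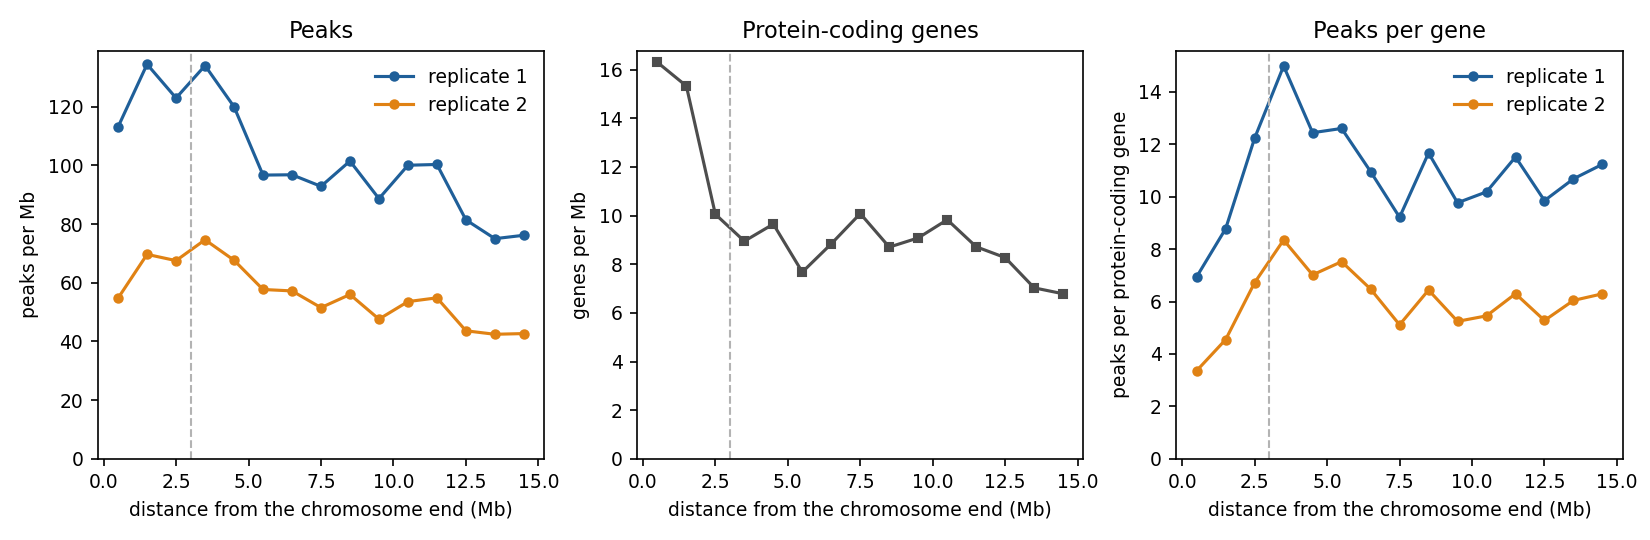
Peaks per Mb (left), protein-coding genes per Mb (middle) and peaks per gene (right) in steps of 1 Mb from the chromosome end, pooled over 37 arms, with replicate 1 in blue and replicate 2 in orange; the dashed line marks 3 Mb. Peak density stays high up to 5 Mb while gene density drops within 3 Mb, so that peaks per gene rise to 15 and 8.35 at 3 to 4 Mb.

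The sequence closest to the telomeres held few peaks. In the outermost 100 kb density was 28.1 in replicate 1 and 15.1 in replicate 2, in peaks per Mb, and 14 of 37 ends had a peak in both lists there. Unassembled or repeated sequence at the ends was not taken out of these lengths, and its part in the low density was not tested. Density then climbed to 87 and 47.6 between 200 and 300 kb and to 145.1 and 69.5 between 500 and 600 kb. The peak nearest to the chromosome end lay at a median distance of 174 kb in replicate 1 and 185 kb in replicate 2. It was nearest at 11q in replicate 1, with 12.9 kb. It was farthest at 14q, with 1511 and 1518 kb. The variable, diversity and joining segments of the immunoglobulin heavy chain, which B cells rearrange, fill most of that stretch (chr14:105863196-106875017), and they held no peak in either list, while the rest of the 14q end held 317 and 180. This locus was picked after its values were seen.

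Duplicated gene families of the subtelomeres carried no peak at all. The symbols of 75 genes at ends start with OR4F, WASH, DUX4, TUBB8, FRG1, FRG2, DDX11L, FAM138 or MIR1302-. None of the 75 had a peak of either replicate within 1 kb of a border. Were they independent, this would allow a share of up to 4%. Many are neighbouring copies, as in the DUX4 arrays, so the true limit is wider. A shared region was there for 19.2% of genes of any type, which is not matched for position. Most of the 75 lie in the outer 200 kb, where peaks were sparse in general. Density there in replicate 1 was 28.1 peaks per Mb up to 100 kb and 43.8 from 100 to 200 kb. Of their 43 relatives in the rest of the arms, 3 had a shared region. Many of these copies are nearly identical, and no source used here says whether reads that match several copies were kept.

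The higher density of the ends lay inside genes and between them, and not at gene borders. Within 1 kb of either border of a protein-coding gene, there were 222.5 peaks per Mb at ends and 200.4 in the rest in replicate 1, and 81.4 and 85.2 in replicate 2, ratios of 1.11 and 0.96. Elsewhere in the gene, the ratios were 2.16 and 1.94, with 146.1 against 67.8 and 73.8 against 38 peaks per Mb. Outside protein-coding genes they were 2.12 and 2.1, with 89.1 against 42 and 51.8 against 24.7. For shared regions, the unions of overlapping peaks that hold a peak of each replicate, the ratio was 0.98 at gene borders, 2.31 elsewhere in genes and 2.44 outside them. Gene borders took up 4.92% of the sequence at ends and 2.44% in the rest. The gene table has no exons, so exons and introns were not told apart.

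**Figure D4:**
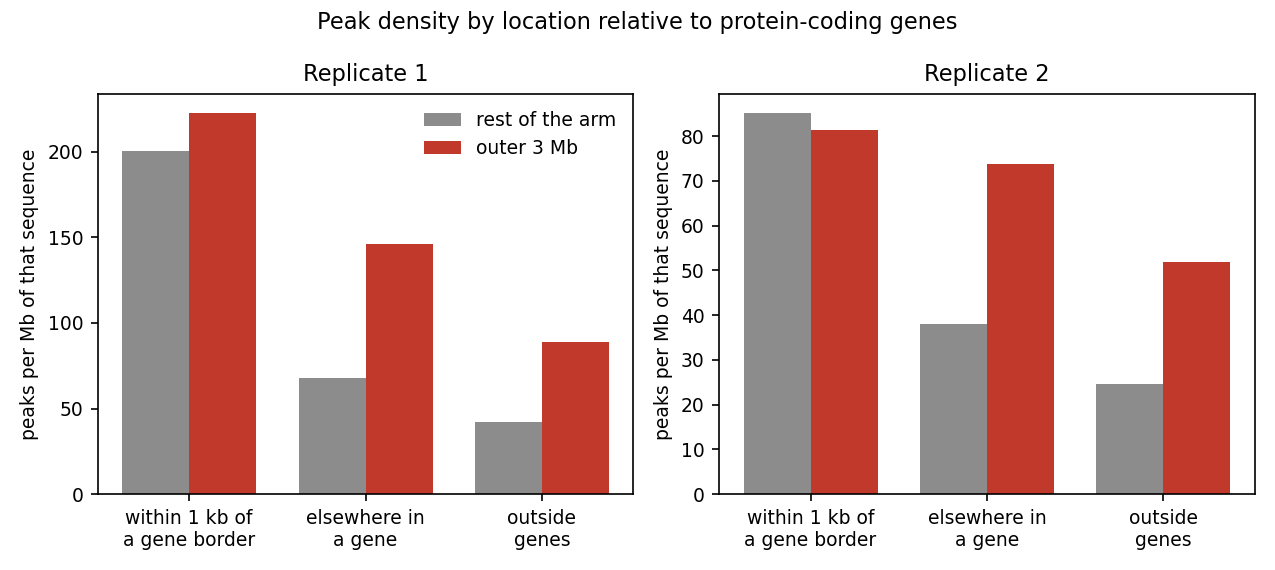
Peaks per Mb of sequence within 1 kb of a border of a protein-coding gene, elsewhere in such a gene and outside them, for the outer 3 Mb (red) and the rest of the arms (grey), pooled over 37 arms, replicate 1 on the left and replicate 2 on the right. The bars at gene borders are of like height (222.5 and 200.4; 81.4 and 85.2), while the other red bars are about double the grey ones.

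Long genes held many of these peaks. The genes at ends with the most shared regions were CACNA1C, a subunit of the L-type calcium channel at 12p (chr12:1970780-2697950), with 76 regions, 188 peaks in replicate 1 and 109 in replicate 2. Next came DIP2C (42 regions) and ADARB2, an RNA-editing enzyme homologue (40), both at 10p. RPTOR, the raptor subunit of mTORC1 at 17q, had 38, and MAD1L1, a spindle checkpoint gene at 7p, had 37. MYT1L, a neuronal transcription factor at 2p, had 31. Per 100 kb of gene, CACNA1C, DIP2C, RPTOR and MAD1L1 had 24.9 to 26.6 peaks in replicate 1 and 12.5 to 15 in replicate 2. At the ends with the largest excess over gene density, single genes also spanned much of the 3 Mb, and their counts are to be read against that length. OPCML, a neural adhesion gene of 1118 kb, held 124 of the 429 peaks at 11q in replicate 1 and 61 of 223 in replicate 2. PTPRN2, of 1049 kb, held 86 of 333 and 66 of 203 at 7q. GMDS, an enzyme of GDP-fucose synthesis whose gene spans 621.8 kb, held 77 of 441 and 38 of 222 at 6p. MYT1L, of 542.2 kb, held 120 of 476 and 53 of 239 at 2p. Per 100 kb, OPCML held 11.1 and 5.46 peaks, PTPRN2 8.2 and 6.29, GMDS 12.4 and 6.11 and MYT1L 22.1 and 9.78. Peaks per Mb of the whole end were 143 and 74.3 at 11q and 111 and 67.7 at 7q. They were 147 and 74 at 6p and 158.7 and 79.7 at 2p. OPCML, PTPRN2 and GMDS were thus sparser than their own end in both replicates, and MYT1L was denser. In all, 57.3% of the 1542 protein-coding genes at ends had a shared region in the body, against 49.7% in the rest of the arms and 50.4% over both; the median gene was 14.7 kb long at ends and 26.3 kb in the rest. These genes were picked by their number of regions, so the counts are descriptions.

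Peaks at ends were wider, above all in replicate 1. Median width was 724 bp at ends and 593 bp in the rest in replicate 1, and 665 and 626 bp in replicate 2, with wider peaks at the end in 28 and 23 of 37 arms. Peaks of 5 kb or more made up 1.53% of end peaks and 0.75% of the others in replicate 1. In replicate 2 they made up 0.042% of 7106 end peaks and 0.022% of 80272 others, too few to compare. The end of 16q had the widest peaks of all ends, with medians of 1424 and 790 bp against 700 and 697 bp in its arm. With more and wider peaks, the lists covered 13.6% of the sequence at ends and 4.89% of the rest in replicate 1, and 4.99% and 2.36% in replicate 2. Fold enrichment hardly differed, with medians of 3.22 and 3.13 in replicate 1 and 2.26 and 2.29 in replicate 2; these values are the authors' own for each peak.

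The background that joins the authors' fold and p of a peak under a Poisson model, was computed as an approximate level, in reads, of what the caller expected there. Its median was 2.84 at ends and 3.10 in the rest in replicate 1, where the end was higher in 4 of 37 arms. In replicate 2 it was 10.7 and 10.6, with 17 arms higher at the end. Across the 37 arms, its ratio between end and rest followed the ratio of peak densities in replicate 2 (Spearman's rho 0.73) but not in replicate 1 (−0.15). Its part in the density was not tested, and it is derived from the same peaks.

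Sharing between the replicates was somewhat higher at ends by an overlap of 1 bp or more, and not by a stricter one. At ends, 29.9% of replicate 1's peaks met one of replicate 2, against 27.6% in the rest and 27.8% over both. In the other direction it was 59.3% at ends, 49.9% in the rest and 50.6% over both. The end had the higher share in 21 and 23 of 37 arms. As given above, the other list also covered a larger share of the sequence at ends, and its part in the sharing was not tested. When 50% of both peaks had to overlap, the mean difference between ends and rest went from 5.90 percentage points to −0.15. The highest share of all was at 16q, where 55.6% of the peaks of replicate 1 and 93% of those of replicate 2 overlapped, and 14q (41.6% and 80%) and 4p (38.6% and 79.7%) were also high. Low values were seen at 3p (8.33% and 26.7%) and 1p (10.7% and 11.6%), and in replicate 2 also at 22q (14.7%).

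In all, 3945 shared regions were centred at ends, or 35.5 per Mb against 15.1 in the rest. Their median width was 1515 bp against 1300 bp, and 5.22% reached 5 kb, against 3.23%. The 5 widest all lay at 16q, between 1.44 and 1.90 Mb from the end. The widest, of 29556 bp (chr16:88859580-88889135), met TRAPPC2L, PABPN1L and CBFA2T3, a corepressor of the ETO family. A second one of 24728 bp lay inside CBFA2T3, and the others met ZNF469 and ZFPM1, RNF166 and CTU2, and PIEZO1, a mechanosensitive ion channel. Each of these 5 was a union of 1 or 2 peaks of replicate 1 with 3 to 6 of replicate 2, so none was a single wide peak in replicate 2. The fold of a region, here and below, is the highest among its peaks in a replicate. In these 5 it was 3.30 to 3.70 in replicate 1 and 1.86 to 2.1 in replicate 2. The median over single end peaks, an unlike measure, was 3.22 in replicate 1 and 2.26 in replicate 2.

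Of the 1542 protein-coding genes at ends, 613 (39.8%) had a shared region within 1 kb of a border, against 5553 of 16875 (32.9%) in the rest; over both together it was 33.5%. The share was higher at the end in 21 arms and lower in 16. This difference rested on replicate 1, whose peaks alone met 76.3% of end genes and 70.8% of the others (71.2% over both). Peaks of replicate 2 alone met 38.1% and 37.6% (37.7% over both). A shared region counted when any part of the union reached the border. Peaks of replicate 2 themselves reached it at 587 end genes, fewer than the 613 with a shared region. With a required overlap of 50% of both peaks, 9.34% of end genes and 10.1% of the others had a shared region, so the direction turned. Shares differed widely between ends. At 16q 45 of 54 genes had a region, at 12p 19 of 24, at 14q 19 of 27, and at 4p 34 of 56. At 1p only 3 of 67 genes had one, at 21q 3 of 54, at 6q 1 of 18, and none of the 3 genes of 3p or the 11 of 8p did.

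**Figure D5:**
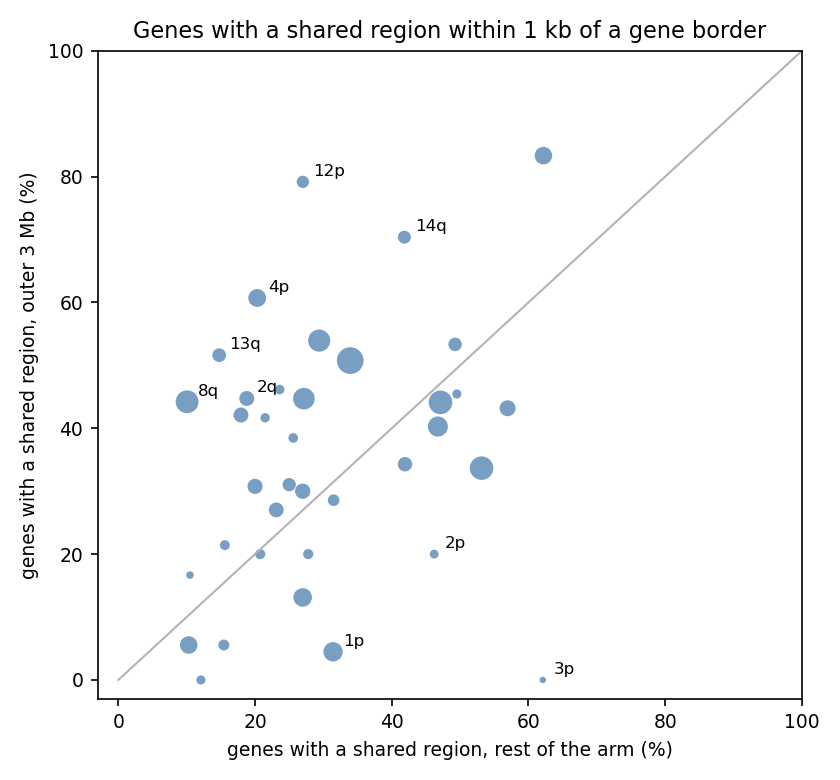
Share, in percent, of the protein-coding genes that had a shared region within 1 kb of a border, in the outer 3 Mb (vertical) and in the rest of the same arm (horizontal), 1 point per arm with an area that grows with the number of genes at the end; the line marks equal shares, and arms over 25 percentage points from it are named. Points lie on both sides: 12p (79.2% and 27.0%) far above the line, 1p (4.5% and 31.4%) and 3p (0% and 62.1%) far below it.

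The genes at ends with the best-ranked shared regions at a border, by the mean of their ranks of fold in both replicates, came from 8 ends. P4HB at 17q had the region chr17:81857441-81861608, with a fold of 3.88 in replicate 1 and 2.62 in replicate 2. SELENOO, a mitochondrial selenoprotein at 22q, had chr22:50201773-50202801 (3.73 and 2.69). NOTCH1, the receptor of the Notch pathway at 9q, had chr9:136493383-136495304 (3.99 and 2.54), at its lower-coordinate border. PACS2, a sorting protein at 14q, had chr14:105299999-105301824 (3.89 and 2.53). CEP131 at 17q (3.63 and 2.76), NRBP2, a pseudokinase at 8q (3.68 and 2.64), RNF168 at 3q (3.66 and 2.61) and MIER2 at 19p (3.81 and 2.47) followed. RHBDF1, an inactive rhomboid, and MPG, a DNA glycosylase of base excision repair, met the same region at 16p (chr16:76995-77847, 3.59 and 2.61), only 77.4 kb from the chromosome end. Regions away from gene borders ranked higher still at ends, with CUL4A at 13q (4.21 and 3.33) and SFSWAP at 12q (4.2 and 3.15) leading.

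Some genes next to the chromosome end also had a shared region at a border. PGBD2, derived from a piggyBac transposase, has its outer border 26.2 kb from the end of 1q. Its region, at the inner border 82.7 kb from the end, had a fold of 4.56 in replicate 1 and 2.30 in replicate 2. The other distances in this paragraph are also those of the outer gene border. The region can lie farther in, as at PLEKHG4B (189.2 kb). MZF1, a zinc finger factor 44 kb from the end of 19q, had 3.42 and 2.15. RHBDF1, at 58.1 kb, was the outermost at 16p, and C8orf33, at 82.6 kb, at 8q (2.96 and 2.44). Between 92.2 and 218.1 kb followed PLEKHG4B at 5p, the polarity gene PARD6G at 18q, CFAP97D2 at 13q, the betaine transporter gene SLC6A12 at 12p, arylsulfatase A, ARSA, at 22q, the secretory kinase gene FAM20C at 7p, the Golgi SNARE gene BET1L at 11p and SH3YL1 at 2p. Folds of these 8 were 3.06 to 3.54 in replicate 1 and 2.2 to 3.07 in replicate 2.

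Known groups of genes at the ends carried shared regions at their borders to different extents. These are to be read against the 33.5% of all protein-coding genes and the 39.8% of those at ends. Of 17 genes listed as immune, 4 (23.5%) had one. These were the signalling adaptor TRAF2 at 9q (3.42 and 2.27) and, at 11p, the inhibitory receptor SIGIRR (3.62 and 2.21), IFITM5 and CD81. IFITM5, listed with the other IFITM genes, had 3.37 and 2.28, and the tetraspanin CD81 had 3.13 and 2.15. At IFITM5 and CD81 only peaks of replicate 1 reached a border, and the second fold belongs to a peak elsewhere in the region. PDCD1, which encodes PD-1 and lies 339.1 kb from the end of 2q, had no peak of either replicate at its borders or in its body. The same held for the costimulatory genes TNFRSF4, TNFRSF18, TNFRSF14 and ICOSLG and for IRF7 and IFITM3. At 2q the outermost peaks lay 415 and 417 kb from the end, so PDCD1 lies in a stretch without any peak. The 3 TNFRSF genes lie at 1p, where 3 of 67 genes had a shared region, and ICOSLG at 21q, where 3 of 54 did. IRF7 and IFITM3 lie at 11p, where 38 of 85 did.

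Of 19 cancer genes, 11 (57.9%) had a shared region, led by NOTCH1. POLE, the leading-strand polymerase at 12q, had 3.51 and 2.56, RPTOR 3.49 and 2.34, and EHMT1, a histone H3 lysine methyltransferase at 9q, 3.43 and 2.33. TERT, the catalytic subunit of telomerase, lies 1274 kb from the end of 5p and had a region at its lower-coordinate border (chr5:1252876-1254271, 3.59 and 2.05) and 14 and 5 peaks in its body. HRAS and CDKN1C, both at 11p, had none of either replicate.

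Around the imprinted domain of 11p15, 5 of 11 genes had a region, near the share of protein-coding genes at the whole 11p end (38 of 85, 44.7%). TSSC4, a spliceosome factor, met one of 8131 bp (3.64 and 2.53), and IGF2, the fetal growth factor, one of 2781 bp (3.51 and 2.34). INS had 3.29 and 2.28 and TSPAN32 3.34 and 2.16, with CD81 as given. At INS, too, only peaks of replicate 1 reached a border. The H19 RNA gene and PHLDA2 had no peak, and KCNQ1, the potassium channel that hosts an imprinting control region, had 65 and 28 peaks in its body but none at its borders. In the alpha-globin locus of 16p, 4 of 12 genes had a region, against 67 of 132 protein-coding genes (50.8%) at the whole 16p end. These were RHBDF1 and MPG, AXIN1, a scaffold of beta-catenin destruction that is also among the cancer genes (3.24 and 2.22), and HBM (3.44 and 2.36). The globin genes HBZ, HBA2, HBA1 and HBQ1 had no peak of either replicate, and NPRL3, whose introns hold the globin enhancers, had 10 and 7 in its body.

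Zinc finger genes named ZNF made up 102 of the genes at ends, most of them at 19q. Of these 32 (31.4%) had a shared region, against 100 of 394 (25.4%) in the rest of the arms. Over all protein-coding genes the shares were 39.8% at ends and 32.9% in the rest. Over those of 19q they were 33.7% at the end and 53.1% in the rest of the arm. Among the ZNF genes at ends, ZNF497 (3.45 and 2.42), ZNF606 (3.35 and 2.64) and ZNF550 (3.94 and 2.26), all at 19q, led with ZNF605 at 12q (3.79 and 2.26). Of the 3 collagen genes of 21q, COL18A1 had a region (3.15 and 2.34). COL6A1 and COL6A2 each had a peak of a single replicate at a border.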

How the data were processed

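The authors deposited 1 list of broad peaks for each of the 2 ChIP replicates. Bowtie2 2.2.9, MACS2 2.1.1 and hg38 are listed by the submitters' processing notes without a role; no source used here gives thresholds. In the deposited lists column 7 is the fold enrichment (a ratio), columns 8 and 9 are −log10 p-value and −log10 q-value, and column 5 is a score, here unused. Reads were not used, so depth is unknown, and the 2 input samples have no values of their own here.

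Positions of genes came from the RefSeq table of GRCh38.p14; 676 rows on scaffolds were left out. Chromosome lengths and arm borders of hg38 were entered by hand from general knowledge of the build and not read from a file; all end and arm assignments rest on them. Peaks, shared regions and genes were placed by midpoint, and gene-free stretches of 1 Mb or more were left out of lengths and of counts per Mb. Windows entered the fit with at least 50% of their length counted. The code of the fit was run on peaks simulated from a gene-density rule of the fitted form with Poisson scatter only. That checks the arithmetic and not whether the line suits these data. Python 3.11.15, numpy 2.4.6 and pandas 2.3.3 were used. Named genes were, by rule, the 10 with the best-ranked regions at a border, the outermost gene with a region at up to 12 ends, the genes of the 5 widest regions, and up to 4 of each list; any further gene was picked with its values in view. Members and lists were chosen with earlier results of these data known. SLC22A18 of the imprinted list was not matched in the table.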

Additional observations from a re-analysis of the deposited data

How the results depend on the processing

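No paired analysis was possible because the inputs, which share replicate numbers with the ChIP samples, have no values here. The median log2 density ratio of ends to rest was 0.99 as the mean of the replicates; it was 0.75 with ends of 1 Mb, 1.08 with the 50% of peaks of higher fold and 1.05 with gene-free stretches counted. From 26 to 31 arms had the denser end under every alternative run. The excess over gene density, 0.68, was 0.58 at a −log10 q from 2 up (0.85 in replicate 1 and 0.30 in replicate 2), 0.84 with the peaks of higher fold, 0.34 and 0.93 with ends of 1 and 5 Mb, and 0.87 with a pseudocount of 0.1. The width ratio, 1.14, was 1.26 at a −log10 q from 2 up. At that limit the difference in sharing of replicate 1 was −0.0077 points. With 50% of both peaks overlapping, the difference in sharing was −0.15 and that in genes with a region −0.71 percentage points. The latter, 6.85 points, was 1.31 at a −log10 q from 2 up, and 4.19 and 14.3 with gene-border windows of 500 bp and 5 kb. Without one replicate, results ranged from 0.97 to 1.02 for density, 0.62 to 0.73 for the excess over gene density, 1.06 to 1.22 for width, 2.36 to 9.45 points for sharing and 0.438 to 5.47 points for genes, the lowest of these without replicate 1. Unknown depth limits all calls of absent peaks.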
